A study of Mus musculus with 4 samples.

Results

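The Hedgehog pathway genes examined were the ligand genes Shh and Ihh, the receptor genes Ptch1 and Smo, the transcription factor genes Gli1, Gli2 and Gli3, and the inhibitor genes Hhip and Sufu. They were chosen by gene symbol in the deposited count table, where all 9 were found among 54532 genes. RNA had been sequenced from marrow mesenchymal stem cells, which are stromal cells that can form bone, fat and cartilage, of 2 control mice and 2 littermates. All 4 animals were C57BL/6J, 1 month old, labelled male, and homozygous for a floxed Rheb allele. The group labelled rhebCKO also carried Cre under the Ucp1 promoter, which is active in brown adipocytes, so the deletion was not directed at the profiled cells. The comparison asks which marrow stromal genes differ when Rheb is deleted in brown fat.

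In the Hedgehog pathway a secreted ligand binds Patched, the receptor encoded by Ptch1, and thereby relieves its block on Smoothened, the transducer encoded by Smo. Smoothened, acting at the primary cilium, frees the GLI factors from Sufu, the protein that holds them in the cytoplasm. Gli2 is the main activator, Gli3 is largely processed to a repressor, and Gli1 is an activator that is itself a target gene. Ptch1 and Hhip, a surface protein that binds and sequesters the ligand, are also target genes and so form negative feedback. In the skeleton Ihh is made by prehypertrophic chondrocytes of the growth plate, and Gli1 marks mesenchymal progenitors in mouse bone.

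The receptor and transducer genes were read well, and the ligands and Hhip were not. Per kilobase of exon, Smo had the highest level, with Sufu, Gli3, Ptch1 and Gli2 below it. Gli1 was close to the limit of detection, Ihh had at most 4 reads per library, and Shh and Hhip had none. No member differed between the groups by more than the spread between libraries. Within replicate number 1 all 6 testable members had higher values in the library labelled rhebCKO, and within replicate number 2 all 6 had lower values.

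The promoter windows of Ptch1, Hhip and Gli2 are shown because the first pair are feedback targets of which Ptch1 was well read and Hhip had no read, and Gli2 was the well-read member that varied most between libraries. Windows were taken from RefSeq on GRCm38.p6, 250 bases before to 50 after the annotated start, and were matched for 7 of 9 members, all but Shh and Gli1. Capitals mark CCACCC or its reverse complement GGGTGG, the inner letters of the GLI consensus GACCACCCA (reverse complement TGGGTGGTC). The Ptch1 window is chr13:63565686-63565985, minus strand, the Hhip window chr8:80057959-80058258, minus strand, and the Gli2 window chr1:119053570-119053869, minus strand.
Ptch1: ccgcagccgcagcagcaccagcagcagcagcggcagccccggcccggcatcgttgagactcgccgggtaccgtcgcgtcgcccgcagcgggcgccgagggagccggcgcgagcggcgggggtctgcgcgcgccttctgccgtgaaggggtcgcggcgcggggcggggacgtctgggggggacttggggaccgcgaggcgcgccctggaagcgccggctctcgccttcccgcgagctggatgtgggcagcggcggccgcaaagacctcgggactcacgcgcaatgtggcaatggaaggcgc
Hhip: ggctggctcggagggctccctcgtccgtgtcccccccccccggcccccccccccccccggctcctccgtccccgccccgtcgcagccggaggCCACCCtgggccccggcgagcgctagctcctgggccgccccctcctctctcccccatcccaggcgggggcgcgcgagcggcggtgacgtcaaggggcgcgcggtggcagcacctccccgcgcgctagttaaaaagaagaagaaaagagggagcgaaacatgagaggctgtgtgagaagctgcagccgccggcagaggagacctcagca
Gli2: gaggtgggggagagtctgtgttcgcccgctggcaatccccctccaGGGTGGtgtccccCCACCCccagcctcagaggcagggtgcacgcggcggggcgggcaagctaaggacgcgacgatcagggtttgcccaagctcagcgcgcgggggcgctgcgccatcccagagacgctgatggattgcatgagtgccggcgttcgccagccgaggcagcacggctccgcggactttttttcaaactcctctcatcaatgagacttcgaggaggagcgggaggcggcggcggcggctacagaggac
The RefSeq start used for Ptch1, at 63565735, lies inside the span that the count table gives the gene, so this is 1 of its start sites. The consensus GACCACCCA was in 0 of the 7 member windows and in 0.253% of 32817 windows of the same length. The inner CCACCC was in 5 of 7, all but Ptch1 and Sufu, against 31.5% of all windows. The member windows ran from 56.3% (Sufu) to 76.3% (Ptch1) G and C, and the median of all windows was 52.7%. These matches describe letters in the windows and say nothing of binding.

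Total counts ran from 17425669 to 19001878 per library. Rheb itself was not lower in the libraries labelled rhebCKO: it had 89.7 and 81.5 CPM (TMM-normalised counts relative to library size) in the controls, against 129 and 121 CPM in rhebCKO, which cannot check a deletion in another tissue. The replicate numbers went with sex-linked transcripts, against the label of male for all 4 animals. Xist, which coats the inactive X chromosome, had 19502 and 31103 counts in the 2 libraries numbered 1 and 8 and 2 in those numbered 2, and the Y-linked gene Ddx3y had 0 and 0 against 1945 and 1631. Each group held 1 library of each kind, so the log2 ratios within numbers 1 and 2 are given beside the group differences. Reads of stromal and of other cells were present in every library. The 12 stromal markers summed to 15333 and 24894 CPM in controls 1 and 2 and to 17086 and 17841 CPM in rhebCKO 1 and 2. The collagen gene Col1a1 alone made up most of each sum, with 11003, 16326, 11725 and 13400 CPM. The 8 macrophage markers summed to 10614, 7310, 8200 and 10094 CPM in the same order, and the 6 endothelial markers to 693, 780, 850 and 973 CPM. Most of each macrophage sum came from Lyz2, with 7768, 5162, 5688 and 7193 CPM. No marker had 0 reads in every library, but the late osteoblast genes Bglap and Bglap2 had at most 4 reads in any.

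Neither ligand gene was read at a level that could be compared. Shh (ENSMUSG00000002633, chromosome 5, 28456815 to 28467256, minus strand) had 0 counts in all 4 libraries. A count of 0 allows up to 3 reads, which is 0.0555 to 0.0607 RPKM (reads per kilobase of exon, scaled to library size) across the libraries, and this limit covers counting error only. Of the 2847 exon bases of Shh, 446 are shared with 9530036O11Rik and 361 with Gm26894, opposite-strand genes that also had 0 counts. Ihh (ENSMUSG00000006538, chromosome 1, 74945315 to 74951672, minus strand) had 4 and 3 counts in controls and 2 and 0 in rhebCKO, too few to be tested. Dhh, the third mammalian ligand gene, had 0 and 3 counts in controls and 1 and 0 in rhebCKO. All 3 ligand genes were therefore at or near the limit of detection in both groups, and no fold between groups is given for them.

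Smo (ENSMUSG00000001761, chromosome 6, 29735503 to 29761365, plus strand) had the highest level per length of the 9 genes in every library. It had 1645 and 2556 counts in controls and 1730 and 1660 in rhebCKO, or 15.6, 23.9, 17.6 and 17.0 RPKM. Control 2 stood above the other 3 libraries, and both rhebCKO values lay between those of the controls. The log2 fold change, rhebCKO minus control, was -0.19 (SE 0.24, 95% interval -0.75 to 0.36, edgeR adjusted p = 1.00), with log2 ratios of 0.17 within replicate 1 and -0.49 within replicate 2.

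Ptch1 (ENSMUSG00000021466, chromosome 13, 63508328 to 63573598, minus strand) had 805 and 1231 counts in controls and 892 and 718 in rhebCKO. Its CPM was 43.0 and 64.8 in controls and 50.9 and 41.4 in rhebCKO, means of 53.9 ± 15.4 and 46.2 ± 6.76 (SD, n = 2 each). The groups overlapped, with rhebCKO 1 between the controls. The log2 fold change was -0.22 (SE 0.26, 95% interval -0.82 to 0.37, edgeR adjusted p = 1.00). Within replicate 1 the log2 ratio was 0.24 and within replicate 2 it was -0.65. The ratio of Smo to Ptch1 per length ran from 4.89 to 5.83 over the 4 libraries, so the receptor and its transducer were read in similar proportion throughout. Ptch1 was annotated with 14185 bases of exon over all its isoforms, which lowers its value per length if only some are used.

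**Figure D1:**
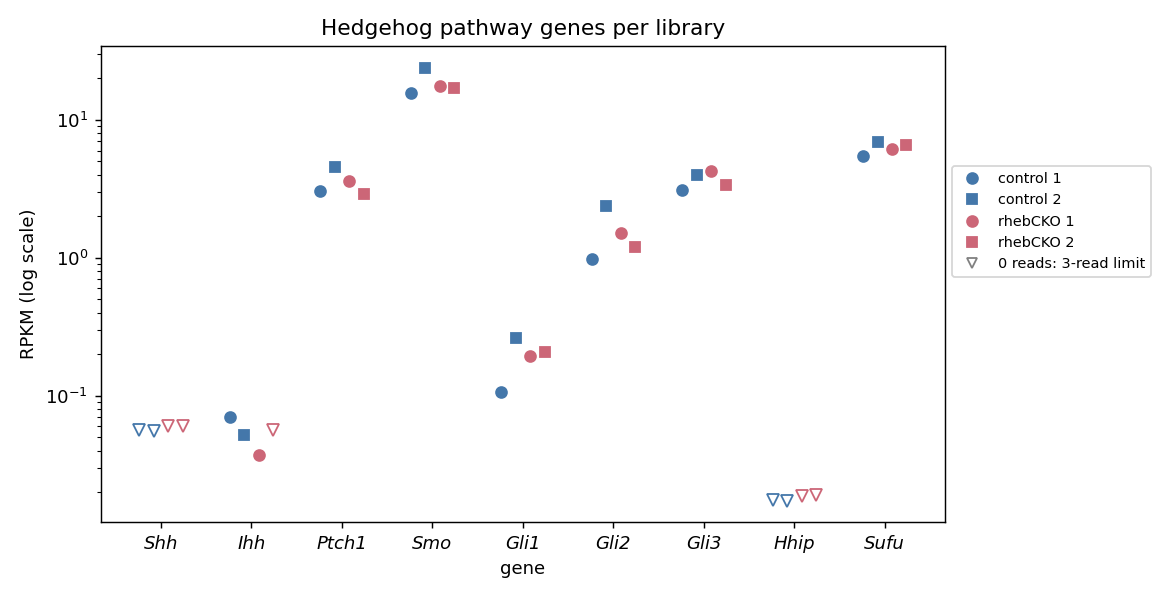
RPKM (log scale) of the 9 Hedgehog pathway genes in the 2 control libraries (blue) and the 2 libraries labelled rhebCKO (red), with circles for replicate 1 and squares for replicate 2. Open triangles mark a count of 0 and stand at the level of 3 reads. Smo lies between 15.6 and 23.9 RPKM, and Shh and Hhip have no read.

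Among the GLI genes the level per length fell from Gli3 to Gli2 to Gli1 in every library. Gli3 (ENSMUSG00000021318, chromosome 13, 15463235 to 15730026, plus strand) had 560 and 720 counts in controls and 719 and 563 in rhebCKO, or 3.12, 3.95, 4.28 and 3.38 RPKM. Each group held 1 lower and 1 higher library, and the lower one was replicate 1 in controls and replicate 2 in rhebCKO. Its log2 fold change was 0.12 (SE 0.24, 95% interval -0.45 to 0.68), with 0.46 within replicate 1 and -0.22 within replicate 2. The range of Gli3 per length overlapped that of Ptch1, whereas the other neighbouring genes in the order did not overlap: Smo, Sufu, then Gli3 and Ptch1, then Gli2, Gli1 and Ihh.

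Gli2 (ENSMUSG00000048402, chromosome 1, 118834132 to 119053619, minus strand) varied most among the members with more than 100 reads per library. It had 127 and 311 counts in controls and 182 and 142 in rhebCKO, or 0.987, 2.38, 1.51 and 1.19 RPKM. The controls were thus 1.26 apart on the log2 scale and enclosed both rhebCKO libraries. The group difference was -0.32 (SE 0.42, 95% interval -1.30 to 0.66), with 0.61 within replicate 1 and -0.99 within replicate 2. The ratio of Gli3 to Gli2 per length was 3.16 in control 1, 2.83 in rhebCKO 1 and 2.84 in rhebCKO 2, but 1.66 in control 2. The ratio thus differed more between the 2 controls than between the 2 rhebCKO libraries.

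Gli1 (ENSMUSG00000025407, chromosome 10, 127329882 to 127341974, minus strand) had 10 and 25 counts in controls and 17 and 18 in rhebCKO, or 0.107, 0.264, 0.194 and 0.208 RPKM. The controls again enclosed both rhebCKO libraries. Its log2 fold change of 0.12 had an SE of 0.61 and a 95% interval from -1.28 to 1.52. A doubling or a halving of Gli1 lay within that interval and could not be told from no change. Its ratios in replicates 1 and 2 were 0.76 and -0.32 on the log2 scale. Gli3 exceeded Gli1 per length by 15.0 to 29.2 times over the libraries. The kit does not mark strand, and 62 bases of the 4995 bases of Gli1 exon are shared with the opposite-strand gene Arhgap9. The opposite-strand gene Gm47200, which had 0 counts, shares 265 bases. Reads over shared bases could belong to either gene or go uncounted.

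Both inhibitor genes were set apart by level. Hhip (ENSMUSG00000064325, chromosome 8, 79965851 to 80058006, minus strand) had 0 counts in all 4 libraries, which allows up to 0.0174 to 0.0190 RPKM. Ptch1, the other feedback target, was at least 153-fold higher per length than this limit of 3 reads in each library. Sufu (ENSMUSG00000025231, chromosome 19, 46396896 to 46488804, plus strand) was the most even of the 6 members that could be tested. It had 709 and 913 counts in controls and 745 and 791 in rhebCKO, or 37.9, 48.1, 42.5 and 45.6 CPM, and the controls enclosed both rhebCKO values. Its log2 fold change was 0.04 (SE 0.22, 95% interval -0.48 to 0.55), with 0.17 within replicate 1 and -0.08 within replicate 2.

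Of the 9 members, 6 had enough reads to be tested, and Shh, Ihh and Hhip did not. edgeR's quasi-likelihood test called 0 of the 6 after Benjamini-Hochberg adjustment over all genes, where it also called 0 of 14963 genes (0%). At an unadjusted p under 0.05 it had 0 of the 6 against 278 genes (1.86%), and the smallest p of a member was 0.412 (Ptch1). DESeq2 called 0 of the 6 and 23 genes in all (0.154%), and limma-voom called 0 of the 6 and 0 in all, with 248 genes at an unadjusted p under 0.05. The smallest p that an exact two-sided permutation of 2 against 2 libraries allows is 0.333.

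**Figure D2:**
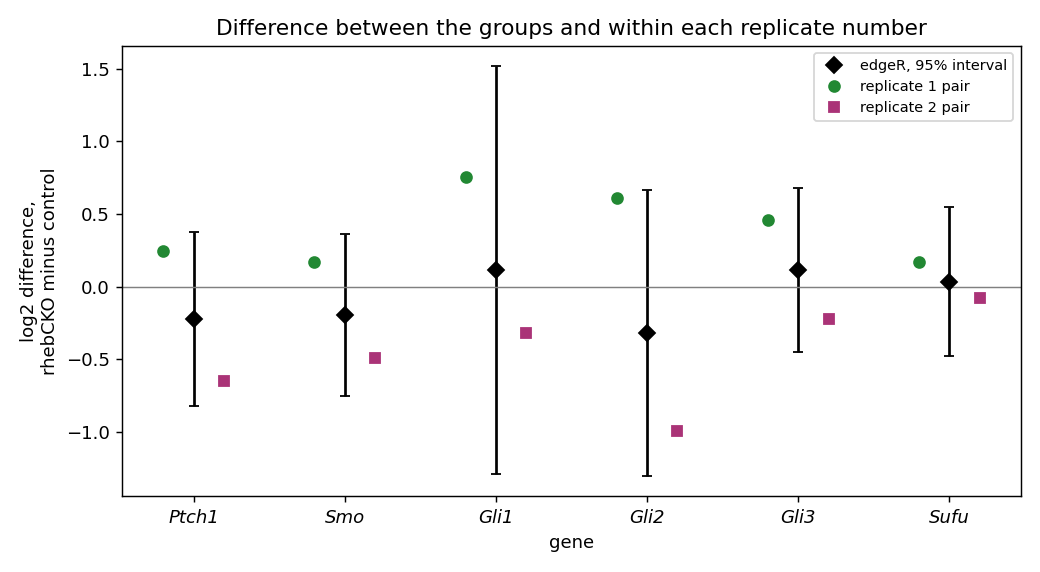
log2 difference, rhebCKO minus control, for the 6 tested members. Diamonds with bars are the edgeR log2 fold change and its 95% interval over all 4 libraries, circles the log2 ratio within replicate 1 and squares that within replicate 2. All intervals include 0, every circle lies above 0 and every square below it.

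The 6 tested members did not share 1 arrangement over the libraries, but 4 of them had control 1 lowest and control 2 highest. Control 2 held the highest value of 5 members, all but Gli3, where 27.2% of all genes tested were highest in that library. Control 1 held the lowest value of 5 members, all but Ptch1, where 21.8% of all genes were lowest in it. The extremes thus lay mostly within the control group. A higher value in rhebCKO within replicate 1 together with a lower one within replicate 2 was seen in 6 of 6 members and in 25.2% of all genes. For the 4 members with control 1 lowest and control 2 highest these signs follow from those extremes, so the shares are not separate observations. No test was made of these shares, since the members are not independent of each other.

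Markers of the cell types in the preparations also varied between the libraries. Pdgfra, a receptor gene of mesenchymal progenitors, had 33.0 and 102 CPM in the controls, against 48.8 and 40.2 CPM in rhebCKO. Cxcl12, the chemokine of marrow stroma, had 431 and 892 CPM in the controls, against 506 and 359 CPM in rhebCKO. The stromal and osteoblast lists did not move as a whole. Of the 12 stromal markers 7 were highest and 3 lowest in control 2, and of the 9 osteoblast markers 5 were highest and 3 lowest or tied for lowest there, Bglap and Bglap2 among the latter. The osteoblast transcription factor gene Sp7 had 7.53 and 30.9 CPM in the controls, against 5.25 and 3.40 CPM in rhebCKO. Its log2 ratios were -0.51 within replicate 1 and -3.15 within replicate 2. Those of Alpl were -0.50 and -2.57, and of Ibsp -0.74 and -2.77. These genes were lower within both numbers, unlike the 6 members. Of the 9 osteoblast markers 2 were higher within number 1 and lower within number 2. The same signs were seen in 7 of 12 stromal and 4 of 8 chondrocyte markers. They were seen in 0 of 8 macrophage and 0 of 6 endothelial markers, beside 25.2% of all genes tested. DESeq2 called Sp7, Alpl and Ibsp (adjusted p = 0.0329, 0.0298 and 0.0229), among 23 genes in all (0.154%). edgeR called 0 osteoblast markers. Spp1, the matrix protein gene with the most reads of that list, went the other way, with 1685 and 868 CPM in the controls, against 1290 and 1330 CPM in rhebCKO. Of the 8 chondrocyte markers 5 were highest and 2 lowest or tied for lowest in control 2, with Col9a1 tied at 0 reads. The 8 summed to 377 and 774 CPM in controls 1 and 2 and to 386 and 219 CPM in rhebCKO 1 and 2. Most of each sum came from Col11a1, with 314, 651, 291 and 149 CPM in the same order. Of the 8 macrophage markers 0 were highest and 6 lowest in control 2, and the 6 endothelial markers had 3 lowest there. By log2 fold change all 6 endothelial markers had higher values in rhebCKO, where 51.2% of all genes tested had lower ones. Their median log2 ratio was 0.30 within number 1 and 0.29 within number 2, and edgeR called 0 of them. In bulk RNA, a change in the number of cells of a type and a change in RNA per cell cannot be told apart. The part of these markers in the Hedgehog values was not tested.

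**Figure D3:**
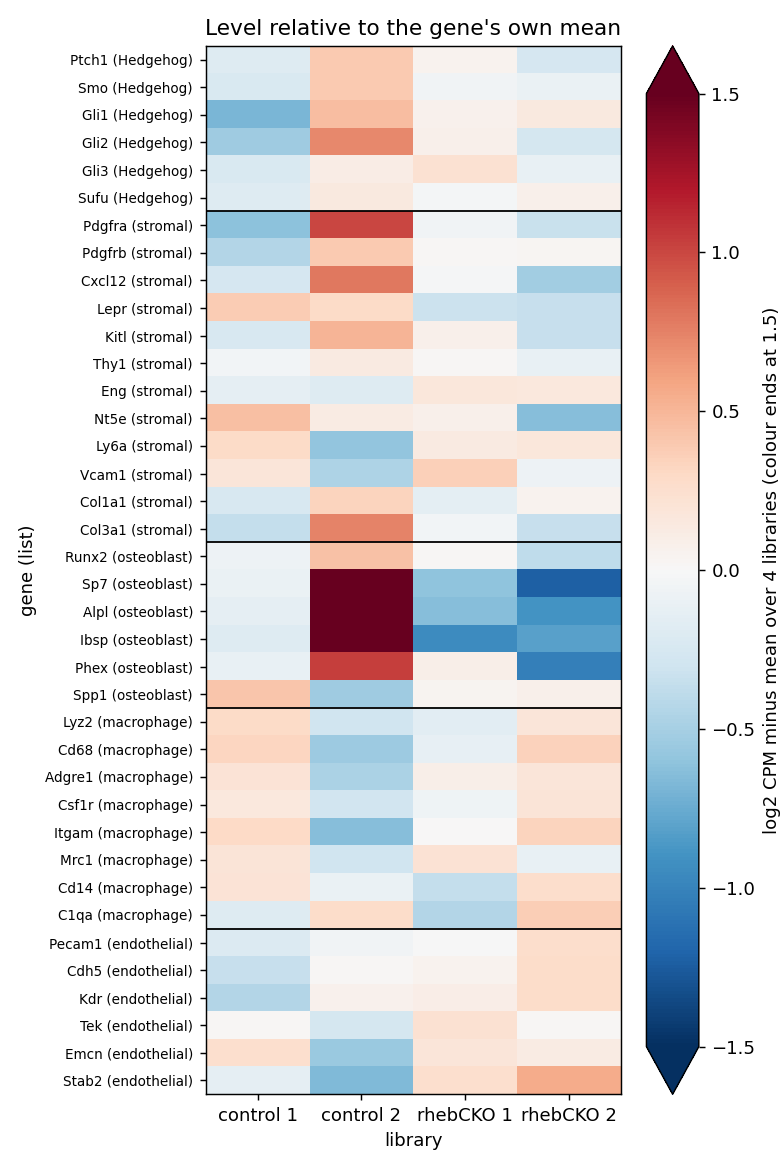
Level of each gene in each library relative to its own mean, as log2 CPM minus the mean over the 4 libraries (red higher, blue lower, colour ending at 1.5 in either direction). The Hedgehog genes are at the top, followed by the tested stromal, osteoblast, macrophage and endothelial markers. Control 2 is red for most Hedgehog, stromal and osteoblast genes and holds the lowest value of 6 of the 8 macrophage markers.

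By the rule used, the genes with the profile most like Ptch1 over the 4 libraries were Lims2, Adamts9 and Cdh11. Their root-mean-square distances from Ptch1 in mean-centred log2 CPM were 0.026, 0.031 and 0.035. Cdh11, a cadherin gene of mesenchymal and osteoblast cells, had 495 and 699 CPM in the controls, against 571 and 471 CPM in rhebCKO. Those most like Gli1 were Mill2, Synm and Ldlrad4, at distances of 0.029, 0.038 and 0.047. Synm, an intermediate filament gene, had 5.18 and 10.9 CPM in the controls, against 8.39 and 9.28 CPM in rhebCKO. With 4 libraries many genes lie close to any profile, so these distances are a description.

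Other genes of the pathway were taken by role, 47 of them found in the table and 42 tested. edgeR called 0 higher and 0 lower, with 30 at lower and 12 at higher values, against 51.2% of all genes tested at lower values. Their median log2 fold change was -0.10, beside -0.01 for all genes tested. Taken within each replicate number, the median was 0.05 (number 1) and -0.26 (number 2). The number at lower values was 20 of 42 without control replicate 2. At an unadjusted p under 0.05 there was 1 gene, the co-receptor gene Gas1, and DESeq2 called 0 of the 42.

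The co-receptor genes had the lowest median of the roles, -0.40 over the 4 tested, and all 4 had lower values in rhebCKO. Without control replicate 2 the log2 fold change was -0.34 for Gas1, -0.06 for Boc and -0.01 for Cdon. Gas1, which encodes a membrane-anchored protein that helps present ligand to Patched, had 456 and 781 counts in controls and 276 and 387 in rhebCKO. Its CPM of 24.3 and 41.1 in controls lay above the 15.8 and 22.3 in rhebCKO, so the groups did not overlap. Its log2 fold change was -0.78 (SE 0.32, unadjusted p = 0.0422, adjusted p = 1.00 by edgeR), with -0.62 within replicate 1 and -0.88 within replicate 2. Gas1 was thus lower within both numbers, unlike the 6 members.

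Boc and Cdon encode related co-receptors of the immunoglobulin superfamily. Boc had 14.7 and 20.7 CPM in the controls, against 14.4 and 13.7 CPM in rhebCKO, a log2 fold change of -0.34 (SE 0.27), with -0.03 and -0.60 within replicates 1 and 2. Cdon had 20.9 and 29.1 CPM in the controls, against 22.2 and 19.0 CPM in rhebCKO, a log2 fold change of -0.28 (SE 0.27), with 0.09 and -0.62. The groups did not overlap for Boc, by a narrow margin, and did for Cdon. Across the 42 genes 5 had non-overlapping groups with rhebCKO lower and 1 with rhebCKO higher, against 11.3% and 10.8% of all genes.

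Genes for ligand release were represented by Hhat, the acyltransferase that adds palmitate to the ligand, with 16.4 and 20.1 CPM in the controls, against 13.8 and 15.3 CPM in rhebCKO. Its log2 fold change was -0.33 (SE 0.26), with -0.25 and -0.39 within replicates 1 and 2, and its groups did not overlap. Disp1, which releases the lipid-bearing ligand, had a difference of -0.13 on the log2 scale (SE 0.23), with 0.02 and -0.26 within replicates 1 and 2. Scube3, a secreted protein gene of a family that aids release, had 0.09 (SE 0.44), with -0.30 and 0.30. None of the 4 tested genes of this role passed.

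Cytoplasmic regulators had a median log2 fold change of -0.03, with 11 of 18 at lower values and 0 called. Kif7, the ciliary kinesin that regulates GLI processing, had 6.30 and 12.3 CPM in the controls, against 6.51 and 8.70 CPM in rhebCKO, with a log2 fold change of -0.29 (SE 0.39), and 0.05 and -0.49 within replicates 1 and 2. Evc, a partner of Smoothened at the cilium base, had -0.22 (SE 0.29), with 0.17 and -0.53 within the numbers. Rab23, a small GTPase that opposes the pathway in mouse, had -0.15 (SE 0.22), with 0.12 and -0.43. Values higher within replicate 1 and lower within replicate 2 were seen in 13 of these 18 genes, in 9 of 16 cilium genes, in 1 of 4 co-receptor genes and in 1 of 4 genes of ligand release, which is 24 of the 42, and in 5 of 13 targets, beside 25.2% of all genes. Primary cilium genes had a median of -0.11, with 12 of 16 at lower values and 0 called. The lowest of these by p was Rpgrip1l, a transition zone gene, with 20.1 and 29.3 CPM in the controls, against 21.8 and 15.8 CPM in rhebCKO and a log2 fold change of -0.39 (SE 0.29), with 0.12 and -0.89 within replicates 1 and 2. Tctn1, also of the transition zone, had -0.20 (SE 0.27), with -0.14 and -0.24. Ift80, of the intraflagellar transport machinery, had -0.19 (SE 0.27), with 0.01 and -0.44.

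**Figure D4:**
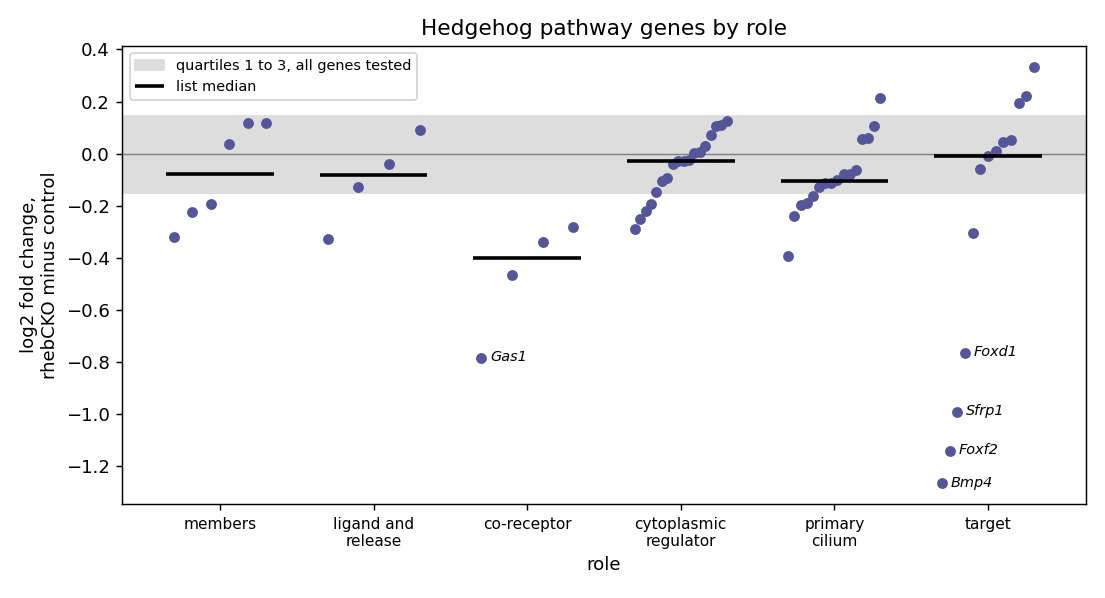
log2 fold change, rhebCKO minus control, of the tested members and of the other pathway genes and targets, grouped by role. Each point is a gene, black lines are medians, and the grey band spans quartiles 1 to 3 of all genes tested, from -0.15 to 0.14. The co-receptor median of -0.40 lies below the band, and 4 targets and Gas1 lie below -0.7.

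Of 16 listed genes known as Hedgehog targets in other settings, 13 were tested, edgeR called 0, and 6 had higher and 7 lower values. The median was -0.01, the same as that of all genes tested to 2 decimals. Bmp4, a bone morphogenetic protein gene, had 15.1 and 50.9 CPM in the controls, against 15.7 and 11.8 CPM in rhebCKO. The high value belonged to control 2, and the log2 fold change of -1.26 (SE 0.51, unadjusted p = 0.0387, adjusted p = 1.00 by edgeR) was 0.06 within replicate 1 and -2.11 within replicate 2. Sfrp1, a secreted Wnt antagonist gene, had 15.0 and 60.5 CPM in the controls, against 25.8 and 12.2 CPM in rhebCKO. The difference was -0.99 on the log2 scale (SE 0.61, unadjusted p = 0.143, adjusted p = 1.00 by edgeR), and it turned from 0.78 within replicate 1 to -2.30 within replicate 2. With control replicate 1 left out, edgeR called Bmp4 (-1.90, adjusted p = 3.65e-05) and Sfrp1 (-1.68, adjusted p = 3.97e-04), among 196 of 15691 genes (1.25%). Without control replicate 2 it called neither, among 66 of 15602 genes (0.423%), and Bmp4 had -0.12.

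The listed targets held 4 forkhead genes. The best read, Foxc2, had 277 and 372 counts in controls and 287 and 308 in rhebCKO, a log2 fold change of -0.01 (SE 0.26), with 0.15 and -0.14 within replicates 1 and 2. Foxf1, with 6 to 17 counts, had 0.05 (SE 0.69), with -0.36 and 0.70. Foxf2 had 45 and 70 counts in controls and 15 and 33 in rhebCKO, and the groups did not overlap. Its log2 fold change was -1.14 (SE 0.52, unadjusted p = 0.0615, adjusted p = 1.00 by edgeR), with -1.39 and -0.92 within replicates 1 and 2. Foxd1 had 40 and 54 counts in controls and 24 and 27 in rhebCKO, a log2 fold change of -0.76 (SE 0.44), with -0.60 and -0.83. Foxf2 and Foxd1, like Gas1, Boc, Hhat and Tctn1, were lower within both numbers, but none passed the adjusted test. The share of all genes lower within both numbers was not counted. The targets Ccnd1 (log2 ratios 0.30 and 0.08 within replicates 1 and 2) and Bcl2 (0.22 and 0.45) were higher within both numbers. Of the 13 tested targets 2 had non-overlapping groups with rhebCKO lower and 2 with rhebCKO higher, against 11.3% and 10.8% of all genes. Pthlh, the target through which Ihh acts in the growth plate, had 0 counts in all 4 libraries.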

How the data were processed

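The authors deposited whole-number read counts per gene for 4 libraries, made with Trimmomatic, HISAT2, featureCounts and mm10 per the submitters' processing notes, with no versions given. RNA was extracted with Trizol and made into TruSeq v.2 mRNA libraries, per the labels' protocols. Of 54532 gene IDs, 54495 were in GENCODE M21, 98.3% at the same position, so coordinates are those of GRCm38. How multi-mapped reads were counted is not given in the sources used here.

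Counts were tested with edgeR 4.0.16 in R 4.3.3 (filterByExpr, TMM, quasi-likelihood F-test, group as the sole term) on all 14963 genes kept, adjusted over all of them at 0.05. The test was run on simulated counts beforehand. SEs were derived from the fold change and its F statistic. CPM and RPKM use TMM-scaled library sizes, RPKM the table's exon length, and ratios within a number CPM + 0.1. Profile distances used log2 CPM (prior count 2) and protein-coding genes outside the lists with a mean of at least 1. The text names all members, up to 3 other genes per role by smallest p, Dhh, Cdon, Boc, Gas1 and Kif7, and the 3 nearest profiles to Gli1 and to Ptch1. A gene that the rule takes is not reported here. Sfrp1, Pthlh, Foxc2, Foxf1, Ccnd1, Bcl2 and single markers were named after their values were seen. Members and lists were chosen with earlier results of these data known. Of 48 listed pathway symbols 47 were found, the other being an older symbol of Grk2. Alternatives were DESeq2 1.42.0, limma-voom 3.58.1, other scalings and filters, a replicate block, and leaving out each library.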

Additional observations from a re-analysis of the deposited data

How the results depend on the processing

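With scaling by median of ratios or by library totals, without a filter or with a minimum of 5 CPM in 2 libraries, and by DESeq2, limma-voom or the replicate block, 0 members and 0 other pathway genes or targets were called, and the 6 members kept their directions where tested. The filter of 5 CPM left Gli1 out. Replicate numbers came from the sample titles, which name no shared litter or day, and same-numbered libraries deviated together with a correlation of 0.245 over 14963 genes (0.176 without X and Y genes). Over the same genes, X and Y included, principal component 1, the largest axis of variation, held 45.8% of the variance. On it the libraries numbered 1 lay at -32.1 (control) and -25.2 (rhebCKO), and those numbered 2 at 40.0 and 17.3. With the replicate block Ptch1 had a log2 fold change of -0.20, Gli2 -0.20 and Gli1 0.21, and 0 genes were called in all, as without it. limma-voom gave Scube3 a log2 fold change of -0.00405.

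Leaving out each library in turn, where the lone library of a group is assumed to vary like the others, moved the members across 0. Ptch1 ranged from -0.50 (without control 1) to 0.12 (without control 2), Smo from -0.48 to 0.16, Gli1 from -0.40 to 0.92, Gli2 from -0.83 to 0.47 and Sufu from -0.13 to 0.23 between the same settings, and Gli3 from -0.0691 (without rhebCKO 1) to 0.31. No member was called in any of them. Over all genes 196 of 15691 were called without control 1, 66 of 15602 without control 2, and 0 without either rhebCKO library. The number of other pathway genes and targets called ranged from 0 to 2, those of the pathway list at lower values from 20 to 31 (counted after seeing the data), the pathway median from -0.24 to 0.02, and the target median from -0.52 (without rhebCKO 2) to 0.20 (without control 2). Disp1 ranged from -0.26 to 0.0288, Evc from -0.53 to 0.17, Kif7 from -0.70 to 0.29, Ift80 from -0.50 to 0.0734, Rab23 from -0.34 to 0.0343 and Scube3 from -0.63 to 0.57. Boc ranged from -0.57 to -0.06, Cdon from -0.51 to -0.01, Rpgrip1l from -0.65 to -0.08, Tctn1 from -0.37 to -0.01 and Hhat from -0.48 to -0.16. Gas1 ranged from -1.12 to -0.34, Foxf2 from -1.81 to -0.68 and Foxd1 from -0.96 to -0.53. The causes were not tested. Gli1 had only 10 to 25 reads per library, and Shh, Ihh and Hhip had too few to be tested.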
